A study of Mus musculus with 12 samples.

Results

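The somatic cells (SCs) of the male and the female mouse embryonic gonad were compared in their mitochondrial piRNAs (mito-piRNAs), small RNAs that match both the mitochondrial DNA (mtDNA) and a database of PIWI-bound RNAs. Members were the 6 SC libraries of the 12 libraries in the series, 3 male and 3 female, chosen by their labelled cell type and sex. The other 6 libraries hold primordial germ cells (PGCs). All embryos were of the outbred CD1 strain, with no other treatment or allele, and were collected on embryonic days E11.5, E12.5 and E13.5 (counted in days post coitum, dpc), with 1 library for each sex and day. Embryos were sexed by PCR for Sry and Jarid1d at E11.5 and E12.5 and by the form of the gonad at E13.5, and the gonads were dissociated. The SC fraction is what remained after PGCs were taken out on magnetic beads carrying an antibody against CD15, so it is a mixture of somatic cell types. The study stained both fractions for germ cells and used only highly enriched ones, so at most a small share of germ cells remains. Each library holds the RNA of many pooled gonads, so p-values below measure the spread between pools and days, not between embryos. The counts hold mito-piRNAs and no other RNA, so markers of Sertoli, granulosa, interstitial or germ cells could not be checked. In bulk libraries of this kind, fewer cells that carry a piRNA and less piRNA per cell cannot be told apart.

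piRNAs are known as partners of the PIWI proteins in the germ line, where they guard the genome against transposons, but small RNAs listed as piRNAs are also counted in somatic tissues. The mitochondrial genome is copied into long transcripts of both strands, from which tRNAs are excised, and cutting at the tRNAs also frees the ribosomal RNAs and most messenger RNAs between them. The first and last bases of the tRNA and rRNA genes are therefore the natural ends of mature mitochondrial RNAs. In the gonad, expression of Sry in male supporting cells starts testis formation around the earliest of these days, and cords of Sertoli cells take shape on the days that follow, whereas the ovary changes its outward form later.

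Over the 6 SC libraries, 141 unique sequences of the 204 in the series were listed, at 57 different 5' ends. The reads came mostly from 5 places on the mtDNA (GRCm39, 16299 bp). The serine tRNA with anticodon GCT (tRNA-SerGCT, mt-Ts2, positions 11613 to 11671) held 45.1% of the reads and the 16S ribosomal RNA (mt-Rnr2, positions 1094 to 2675) held 31.3%. The D-loop, the control region without genes from position 15423 to 16299, held 8.16%, all on the reverse strand from position 16188. The serine tRNA with anticodon TGA (tRNA-SerTGA, mt-Ts1, positions 6870 to 6938 on the reverse strand) held 7.04% and the 12S ribosomal RNA (mt-Rnr1, positions 70 to 1024) held 6.60%. The sequences on which the comparison of the sexes turned lay where the 16S rRNA begins, just after tRNA-Val. The mtDNA at that border is given here with the bases of the 16S gene in capitals, and below it are members that start at this base, with the bases after base 23 in capitals to show how far the longer forms reach beyond the most abundant one.
chrM:1074-1128, forward strand: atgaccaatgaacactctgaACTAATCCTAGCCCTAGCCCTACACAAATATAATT
16S, 18 nt: actaatcctagccctagc
16S, 23 nt: actaatcctagccctagccctac
16S, 25 nt: actaatcctagccctagccctacAC
16S, 29 nt: actaatcctagccctagccctacACAAAT
16S, 31 nt: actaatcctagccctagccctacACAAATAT
16S, 34 nt: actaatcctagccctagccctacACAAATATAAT
16S, 35 nt: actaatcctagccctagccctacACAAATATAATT

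The forms up to 23 nt also matched the nuclear genome with up to 1 mismatch, and those from 24 nt on matched the mtDNA alone. At the other end of the 16S rRNA, a set of sequences shared the last base of the gene, and 2 sequences ran across it into tRNA-Leu (mt-Tl1, positions 2676 to 2750), of which the more widely listed one, of 17 nt, is shown. They follow the mtDNA of that border, in which capitals mark the bases of the 16S gene. In the members the capitals mark bases of tRNA-Leu, which of those shown only the 17-nt sequence holds.
chrM:2643-2695, forward strand: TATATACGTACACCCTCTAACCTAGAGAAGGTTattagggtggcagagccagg
16S 3' end, 31 nt: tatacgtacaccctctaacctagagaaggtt
16S 3' end, 19 nt: ctctaacctagagaaggtt
16S and tRNA-Leu, 17 nt: tagagaaggttATTAGG

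The most read family of SCs started at the first base of tRNA-SerGCT. Its mtDNA is given with the bases of the tRNA gene in capitals. The members under it carry their last base in capitals, because several of them differ from the mtDNA there alone: T22G means that the mtDNA has T and the listed RNA has G at base 22, counted from the 5' end.
chrM:11593-11671, forward strand: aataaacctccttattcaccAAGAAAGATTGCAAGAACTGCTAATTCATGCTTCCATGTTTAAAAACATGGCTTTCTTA
SerGCT, 22 nt: aagaaagattgcaagaactgcT
SerGCT, 22 nt, T22C: aagaaagattgcaagaactgcC
SerGCT, 22 nt, T22G: aagaaagattgcaagaactgcG
SerGCT, 26 nt: aagaaagattgcaagaactgctaatT
SerGCT, 31 nt: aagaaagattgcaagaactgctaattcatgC
SerGCT, 31 nt, C31T: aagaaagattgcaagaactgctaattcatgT

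The families of the 12S rRNA, tRNA-SerTGA and the D-loop are shown by a short and a long member each, with the bases that the long member adds in capitals. The 12S family starts at position 70, tRNA-SerTGA at position 6938 on the reverse strand and the D-loop family at position 16188 on the reverse strand.
12S, 17 nt: aaaggtttggtcctggc
12S, 30 nt: aaaggtttggtcctggcCTTATAATTAATT
SerTGA, 18 nt: gagaaagacatataggat
SerTGA, 21 nt: gagaaagacatataggatATG
D-loop, 20 nt: gaattgatcaggacataggg
D-loop, 26 nt: gaattgatcaggacatagggTTTGAT

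The mito-piRNA reads per SC library numbered 18750 to 59545 and the sequences listed per library 43 to 103. Levels are given in reads per 1000000 (rpm) of each library's total reads, as tabulated in the study after rare sequences had been discarded. Sequences under 10 CPM had been discarded before deposit, so a sequence that is not listed may still have been present below that level, and the lowest count listed in an SC library was between 66 and 105 reads. Summed over a gene, the values leave out whatever part of the reads fell under that floor.

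The question of the comparison was whether male and female somatic gonadal cells differ in mito-piRNAs while the gonads take different paths. In total, the male library was the higher of the pair on 3 of 3 days. At E11.5 5023 rpm were counted in the female and 5762 rpm in the male library. The pair at E12.5 stood at 3163 and 5009 rpm, and that at E13.5 at 8235 and 13129 rpm, again with the male value second. The groups overlapped, since the level also differed between the days. The mean was 5473 ± 2566 rpm (SD, n = 3) in female and 7967 ± 4486 rpm (SD, n = 3) in male SCs, a paired log2 difference of 0.51 ± 0.27 (SD, n = 3 days; exact sign-flip permutation test, two-sided p = 0.25). That p is the smallest that 3 pairs can give, and the unpaired exact permutation test, which cannot go below 0.1, gave p = 0.5. Counted per 1000000 piRNA reads of the same libraries, the male value was also higher each day, with 7038 against 9249, 5018 against 7911 and 12251 against 20548.

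The rRNA genes followed the same order with a larger gap. In 16S rRNA, the large ribosomal RNA of the mitochondrion, 1209 rpm were counted in female and 3204 rpm in male SCs at E11.5. The values were 689 and 1643 rpm at E12.5, and 2269.5 and 3965 rpm at E13.5. Male SCs thus held 2.65, 2.38 and 1.75 times the female level on the 3 days, although the lowest male library stayed below the highest female one. The mean was 1389 ± 805 rpm (SD, n = 3) in female and 2937 ± 1184 rpm (SD, n = 3) in male SCs. Within a day the male library was the higher one each time for 12S rRNA, the small ribosomal RNA, too. Female and male levels were 307 and 941 rpm at E11.5, 49.6 and 305 rpm at E12.5, and 445 and 740.4 rpm at E13.5, with means of 267 ± 201 and 662 ± 325 rpm (SD, n = 3 each). Of the 5 features (a gene or region on 1 strand) with reads in all 6 libraries, 2 (40% of those features) were higher in the male library on 3 of 3 days, and these were the rRNAs.

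The tRNA-Ser genes and the D-loop had no fixed order. At E11.5 tRNA-SerGCT stood at 2385 rpm in the female and 961 rpm in the male library. The order was the opposite at E12.5, with 1782 and 2130.5 rpm, and at E13.5, with 3733 and 7028 rpm. Male SCs at E13.5 held the highest level of any gene in any SC library, and male SCs at E11.5 the lowest tRNA-SerGCT level. For tRNA-SerTGA the female and male levels were 525 and 303 rpm at E11.5, 203 and 254 rpm at E12.5, and 844 and 568 rpm at E13.5. Reverse D-loop reads measured 580.0 and 289 rpm, 414 and 610.0 rpm, and 662 and 596 rpm in the same order. At E11.5 the 3 tRNA-Ser and D-loop features were all lower in the male library while both rRNAs were higher, and at E12.5 all 5 features were higher in it.

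**Figure D1:**
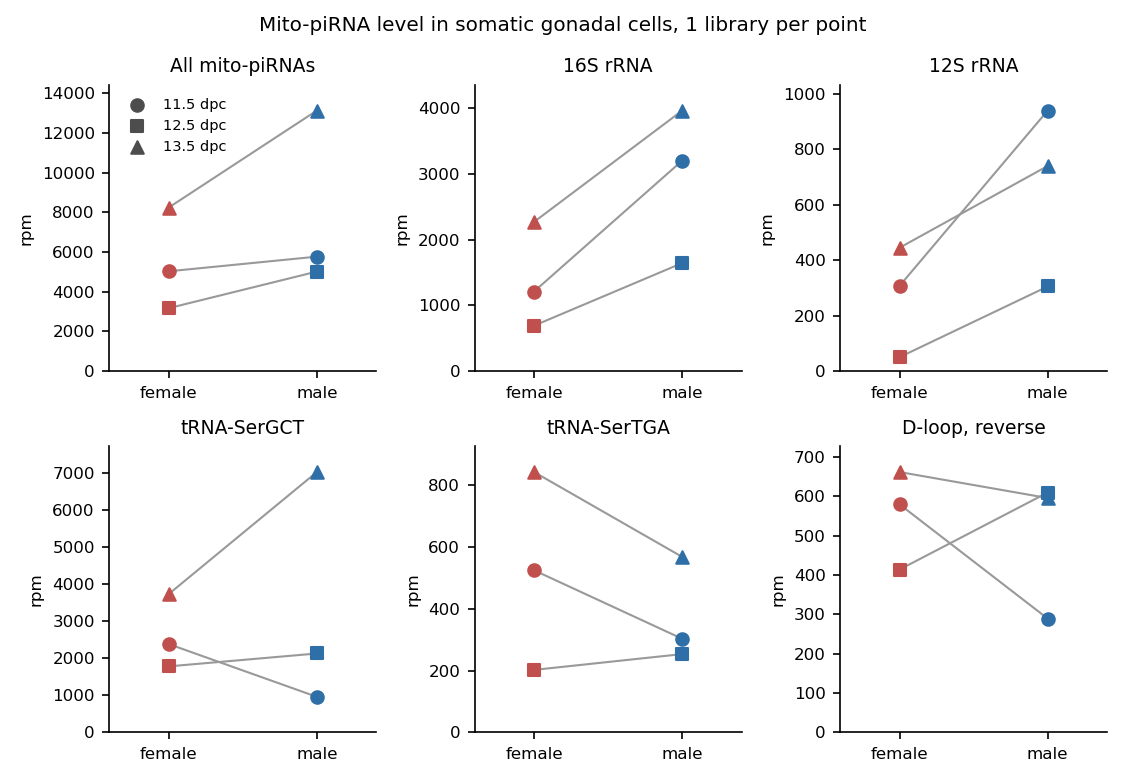
Mito-piRNA level (rpm of the library's total reads) in female and male SCs for all mito-piRNAs and for the 5 features with reads in all 6 libraries. Each point is 1 library, the marker gives the day and a line joins the libraries of 1 day. The lines of 16S and 12S rRNA rise from female to male on 3 of 3 days, whereas those of tRNA-SerGCT, tRNA-SerTGA and the D-loop run in both directions.

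The differences were tested on the counts with edgeR's quasi-likelihood test, with day and sex in the model. Of the 7 features with reads in at least 3 libraries, 0 (0%) passed at an adjusted p under 0.05, with 0 at an unadjusted p under 0.05 and 0 by DESeq2. The 16S rRNA had a log2 difference of 1.16 (SE 0.42, male over female, edgeR adjusted p = 0.221) and the 12S rRNA of 1.65 (SE 0.60, edgeR adjusted p = 0.221). The 12S value was 0.75 with unlisted sequences set to the lowest listed count. With exact matches to the mtDNA alone the female library at E12.5 held no listed 12S read, so no value is given. The D-loop stood at -0.20 (SE 0.53, edgeR adjusted p = 0.855), tRNA-SerTGA at -0.35 (SE 0.47, edgeR adjusted p = 0.841) and tRNA-SerGCT at -0.03 (SE 0.66, edgeR adjusted p = 0.964). With testing kept to the 5 features that have reads in all 6 libraries, 12S rRNA alone passed (log2 1.65, edgeR adjusted p = 0.0347) and 16S rRNA did not (edgeR adjusted p = 0.0837). The 12S gene is among these 5 only through a 16-nt form of uncertain assignment, described with that gene, which is all that the female library at E12.5 lists there. Over the alternatives the adjusted p ran from 0.0347 to 0.754 for 12S and from 0.0683 to 0.754 for 16S. Scaled to the deposited reads of each library, which removes the difference in totals, the log2 difference was 0.64 for 16S and 1.15 for 12S (edgeR adjusted p = 0.408 for both).

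Expressed as shares of a library's own mito-piRNA reads, rRNA genes held 30.2% (95% Wilson interval 29.7% to 30.7%) in female and 71.9% (71.4% to 72.5%) in male SCs at E11.5. The shares were 23.4% and 38.9% at E12.5 and 32.96% and 35.8% at E13.5, so that the lowest male value was above the highest female one. The mean was 28.8% ± 4.94 (SD, n = 3) in female and 48.9% ± 20.01 (SD, n = 3) in male SCs. The paired difference of 20.05 ± 19.8 percentage points (SD, n = 3 days) had an exact sign-flip permutation p of 0.25, adjusted p = 0.7 over the 14 shares and lengths compared. Without the E11.5 pair it was 9.21 points. The tRNA genes made up 58.3% and 21.9% at E11.5, 63.5% and 48.9% at E12.5, and 58.6% and 59.3% at E13.5, female first. Protein-coding genes never held more than 1.12% of the reads of an SC library. Wilson intervals cover counting error only, and they are narrow beside the spread between days.

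**Figure D2:**
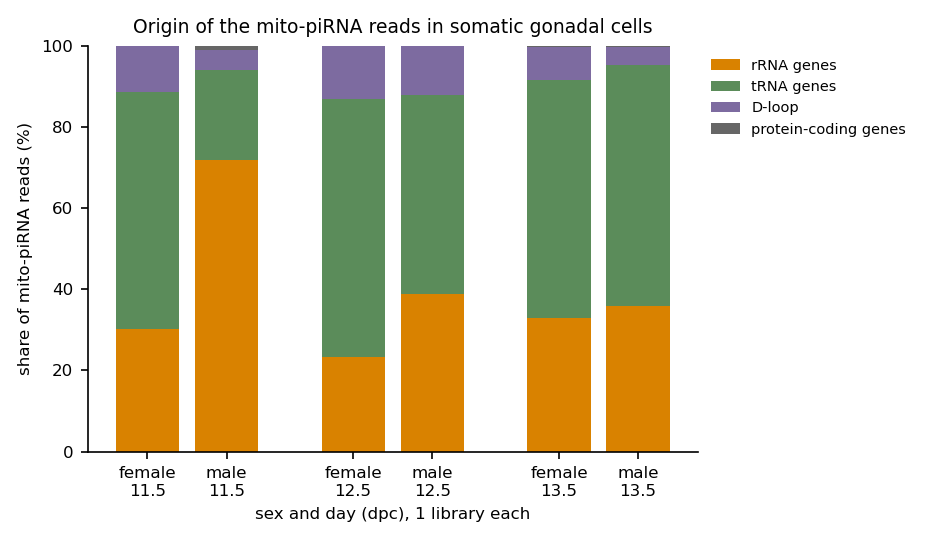
Share of the mito-piRNA reads (%) that lay in protein-coding genes, the D-loop, tRNA genes and rRNA genes, 1 bar per SC library, grouped by day. The rRNA share is higher in the male bar of each pair, with the widest gap at E11.5 (30.2% against 71.9%) and the narrowest at E13.5 (32.96% against 35.8%).

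Most of the 16S difference lay at the first base of the gene, printed above. This 5' end carried 21 sequences and 25.2% of all SC reads. Female and male SCs had 993 and 2548 rpm there at E11.5, 670.1 and 1312 rpm at E12.5, and 1538 and 3485 rpm at E13.5. The male library was 2.57, 1.96 and 2.27 times the female one, a paired log2 difference of 1.17 ± 0.20 (SD, n = 3 days). The other 5' ends with reads in all 6 libraries varied more between days, with SDs from 0.59 to 1.38. Of the 6 such 5' ends, 2 (33.3%) were higher in the male library on 3 of 3 days, and both were in the 16S rRNA. By edgeR, 0 of 21 5' ends (0%) passed between the sexes, 0 had an unadjusted p under 0.05, and DESeq2 called 5. For the first base of 16S the edgeR fit gave an SE of 1.12 and an adjusted p of 0.810.

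Sequence by sequence, the first-base family of 16S had 1 direction. Its 10 sequences that were listed in all 6 libraries were all higher in the male library on 3 of 3 days, at 1.33 to 4.83 times the female level at E11.5, 1.12 to 5.73 times at E12.5 and 1.03 to 3.76 times at E13.5. Over all 33 sequences listed in all 6 libraries, 11 (33.3%) were higher in the male library each day and 0 were lower each day. The eleventh was the 31-nt sequence at the 3' end of 16S. None of the 12 such sequences of tRNA-SerGCT, the 6 of the D-loop or the 3 of tRNA-SerTGA had 1 direction on 3 of 3 days. Members of a family share their 5' end and first bases and may share a source RNA, so the 10 sequences are not 10 independent observations.

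**Figure D3:**
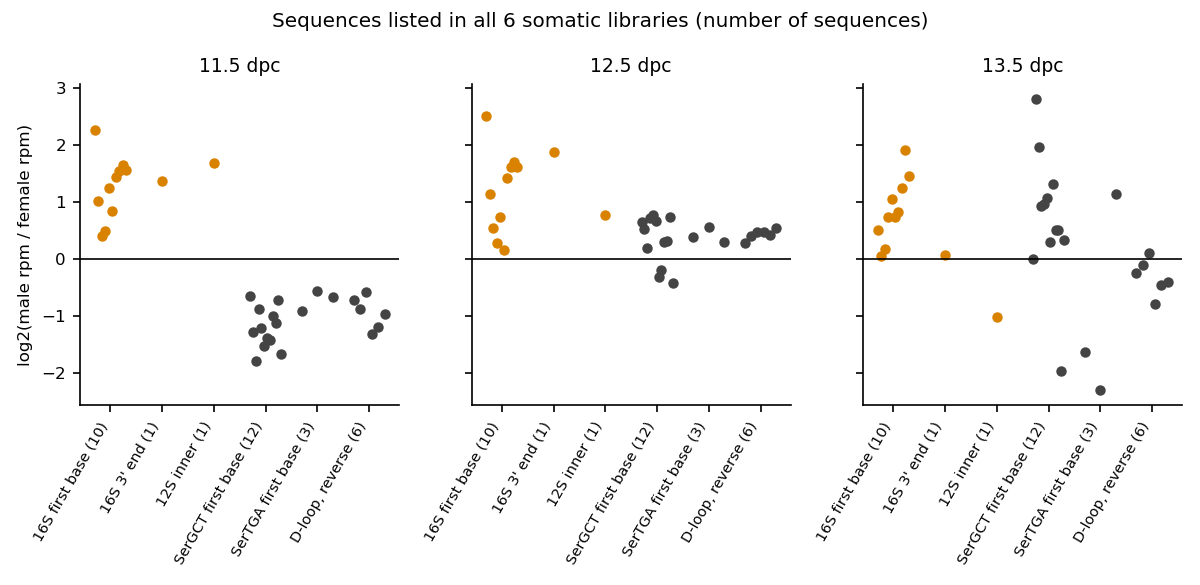
The log2 ratio of male to female rpm for each of the 33 sequences listed in all 6 SC libraries, with 1 panel per day and the sequences of a family ordered from short to long. rRNA sequences are orange, all others grey, and the line at 0 marks equal levels. The 10 first-base 16S sequences lie above 0 in 3 of 3 panels, whereas the 12 tRNA-SerGCT sequences all lie below 0 at E11.5 and 10 of them lie above 0 at E13.5.

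Summed by length class, the 16S forms of 29 to 35 nt had the larger ratio of male to female, but the single forms did not follow length throughout. Forms of 29 to 35 nt summed to 361 and 1123 rpm in female and male SCs at E11.5, 156 and 466 rpm at E12.5, and 593 and 1747 rpm at E13.5. The ratio of male to female was 3.11, 2.98 and 2.95 on these days. Forms of 18 to 23 nt reached 508 and 1165 rpm, 391 and 693 rpm, and 783 and 1412 rpm, with ratios of 2.29, 1.77 and 1.80. Both length classes were higher in the male library each day, and the ratio of the longer class was the larger on 3 of 3 days. The shortest form, of 18 nt, went against this: at 50.7 and 245 rpm, 22.1 and 127 rpm, and 138 and 197 rpm in female and male SCs it had ratios of 4.83, 5.73 and 1.43, and its paired log2 difference of 1.77 ± 1.09 (SD, n = 3 days) was the highest of the family, next to 1.76 ± 0.14 for the 34-nt form. The 25-nt form, in neither class, had ratios of 1.80, 1.12 and 1.68, among the lowest. Accordingly the mean length at this 5' end was 25.9 and 26.7 nt in female and male SCs at E11.5, 24.7 and 25.7 nt at E12.5, and 25.8 and 27.4 nt at E13.5. The difference was 1.11 ± 0.50 nt (SD, n = 3 days; exact sign-flip permutation p = 0.25, adjusted p = 0.5 over 4 families). Counted over exact matches alone the difference was 1.08 nt, and over forms above 25 rpm it was 0.99 nt.

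In single sequences, the 34-nt form stood at 132 and 414 rpm in female and male SCs at E11.5, 47.1 and 153 rpm at E12.5, and 176 and 662 rpm at E13.5. Among the 67 sequences tested it had the lowest unadjusted p (log2 1.75, SE 0.46, edgeR unadjusted p = 0.0303, adjusted p = 0.900). The 35-nt form (log2 1.55, SE 0.46) and the 31-nt form (log2 1.47, SE 0.47) were the only others with an unadjusted p under 0.05 by edgeR, so 3 sequences passed that mark and 0 (0%) passed after adjustment, while DESeq2 called 11. Of those 11, the 34-nt form was the only one listed in all 6 libraries, and the others entered the test mainly or wholly through the sex in which they were listed. The most abundant first-base form, of 23 nt, measured 248 and 588 rpm, 202 and 339 rpm, and 333 and 695 rpm. It was the 1 sequence of the 33 (3.03%) whose male libraries were all above its female libraries. The 29-nt form read 108 and 291 rpm, 56.0 and 150.2 rpm, and 214 and 377 rpm, with the same order within each day.

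**Figure D4:**
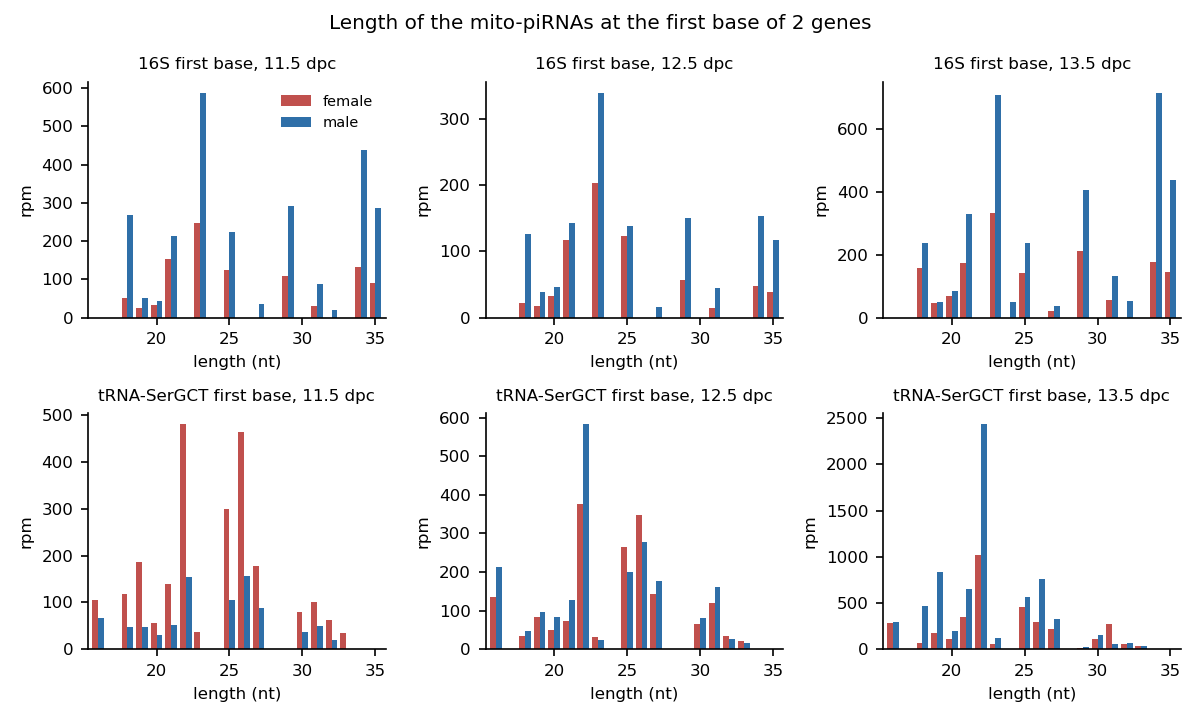
Level (rpm) of the mito-piRNAs of each length (nt) at the first base of 16S rRNA (top) and of tRNA-SerGCT (bottom) in female and male SCs, 1 panel per day with its own scale. At 16S the male bars are higher at every length listed in both sexes and at tRNA-SerGCT the 22-nt bar of male SCs stands at 153 rpm at E11.5 and 2434 rpm at E13.5.

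Forms from 24 nt on, which have no nuclear match, made up 48.8% and 54.3% of the first-base 16S reads in female and male SCs at E11.5, 41.7% and 47.2% at E12.5, and 49.1% and 59.5% at E13.5. Over all mito-piRNA reads of a library, sequences without a nuclear match held 20.4% and 34.8%, 16.5% and 24.2%, and 20.9% and 21.9%. The male share was the larger on 3 of 3 days, by 7.68 ± 6.69 percentage points (SD, n = 3 days; exact sign-flip permutation p = 0.25, adjusted p = 0.7). Without the E11.5 pair this difference was 4.33 points. At this 5' end the class is set by length, so it is no separate observation from the longer forms above.

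At the 3' end of 16S, 8 sequences shared the last base of the gene, position 2675. They summed to 133 and 429 rpm in female and male SCs at E11.5, 19.1 and 222 rpm at E12.5, and 290.4 and 336 rpm at E13.5. The 31-nt member, printed above, was the only one listed in all 6 libraries, at 41.2 and 106 rpm, 19.1 and 70.3 rpm, and 88.5 and 93.0 rpm. The male library was 2.58, 3.69 and 1.05 times its female partner for this sequence, so the order held on each day and the gap at E13.5 was small. The 17-nt sequence that joins the last bases of 16S to the first bases of tRNA-Leu was listed in 3 of 3 male libraries, at 55.2, 26.3 and 47.4 rpm on the successive days, and in 1 of 3 female libraries, at 25.6 rpm at E13.5. The second such sequence, 16 nt from position 2666, was listed in male SCs at E11.5 alone, at 18.2 rpm.

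Over the whole 16S gene 31 5' ends were listed in SCs. Of these, 11 were listed in 3 of 3 male libraries and 2 in 3 of 3 female libraries, against 17 and 7 of all 57 5' ends. Both of the latter 16S ends, and most of the 11, belong to sequences that share a border base of the gene, its first or its last. Of the 31, 8 were listed in the female library at E13.5 alone and 0 in the male library of that day alone, against 13 and 4 of all 57. Summed over the sequences that neither begin at the first base nor end at the last base of the gene, female and male SCs had 83.0 and 226 rpm at E11.5, no listed read and 109 rpm at E12.5, and 441 and 145 rpm at E13.5, so the female level was the higher at E13.5. The 5 5' ends that DESeq2 called began at positions 1191, 1273, 1804, 2643 and 2665, and each was listed in every male library and, among females, at E13.5 alone. They entered the test, which asks for reads in 3 libraries, through the male libraries, so the calls restate this listing and support no difference of their own. At E13.5, the 1 day on which both libraries listed them, the female level was above the male one at positions 1191, 1273 and 1804 (31.3 against 20.3, 56.3 against 18.7 and 51.2 against 27.3 rpm). It was below the male level at positions 2643 and 2665 (28.2 against 36.4 and 25.6 against 47.4 rpm). These levels are near the lowest listed in any SC library, 14.6 to 15.8 rpm, and no fold was computed against a library without a listed read. The female library at E12.5, which had the lowest total of the 6, listed 7 5' ends in all, against 20 in its male partner.

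The 12S rRNA had its reads mainly at its own first base, position 70. Female SCs had 255 rpm there at E11.5, no listed read at E12.5 and 316 rpm at E13.5. Male SCs had 748, 197 and 601 rpm. The 17-nt form printed above stood at 88.4 and 269 rpm in female and male SCs at E11.5 and at 102 and 195 rpm at E13.5, and in the pair between them it was listed in the male library alone, at 78.5 rpm. A 16-nt form inside the gene, from position 978, was the only 12S sequence listed in all 6 libraries. It differs from the mtDNA at its second base (T2A, mtDNA base first) and matches the nuclear genome exactly, so its assignment to 12S is uncertain. Its levels were 33.9 and 109 rpm, 49.6 and 85.1 rpm, and 52.7 and 26.02 rpm, higher in the male library on 2 of 3 days. All 12S reads of the female library at E12.5 came from this form, so the ratio of 6.15 between the 12S sums of that day rests on it, and no first-base ratio can be given there.

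Within tRNA-SerGCT, 27 sequences began at the first base and held 43.9% of all SC reads. The most abundant sequence of SCs, the 22-nt form, stood at 443 and 153 rpm in female and male SCs at E11.5, 358 and 568 rpm at E12.5, and 952 and 1991 rpm at E13.5. The male library went from 0.35 to 1.59 to 2.09 times its female partner. Of the 12 sequences listed in all 6 libraries, the male level was higher in 0 at E11.5, in 9 at E12.5 and in 10 at E13.5, against 12, 30 and 23 of all 33 sequences on these days. The 31-nt form was 1 of the exceptions at E13.5, with 232 rpm in female and 59.3 rpm in male SCs. The 26-nt form, the longer peak of the family, measured 419 and 156 rpm, 316 and 277 rpm, and 272 and 683 rpm in female and male SCs. It was the female library that was higher at E11.5 and E12.5 and the male library at E13.5. The 25-nt form had the same order, at 274 and 105 rpm, 250 and 200 rpm, and 424 and 524 rpm. A second 5' end of this tRNA, 2 bases further in at position 11615, read 51.2 and 94.0 rpm at E11.5, 16.7 rpm in male SCs alone at E12.5, and 227 and 31.5 rpm at E13.5, and it was not listed in any PGC library.

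The tRNA-SerGCT family had the shorter mean length in the male libraries, in the opposite sense to 16S. Its mean length was 23.8 and 23.7 nt in female and male SCs at E11.5, 24.1 and 23.5 nt at E12.5, and 23.4 and 22.3 nt at E13.5. The male value was the lower on 3 of 3 days, by 0.62 ± 0.49 nt (SD, n = 3 days; exact sign-flip permutation p = 0.25, adjusted p = 0.5 over 4 families), and by 0.37 nt without the E13.5 pair. Forms of 16 to 22 nt stood at 397, 1149 and 4878 rpm on the successive days in male SCs and at 1083, 752 and 1978 rpm in female SCs. Forms of 29 to 33 nt lay between 105 and 344 rpm in male and between 240.4 and 485 rpm in female SCs. The mean lengths of tRNA-SerTGA and of the D-loop family had no fixed order between the sexes.

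The 18-nt form of tRNA-SerTGA, its most abundant one, stood at 221 and 149.6 rpm in female and male SCs at E11.5, 89.7 and 132 rpm at E12.5, and 540.3 and 109 rpm at E13.5. Its 21-nt form had another order at E13.5, with 138 rpm in female and 304 rpm in male SCs. The 3 sequences of this tRNA listed in all 6 libraries were all lower in the male library at E11.5 and all higher at E12.5, while 1 of them was higher at E13.5. In the D-loop family the 20-nt form read 125 and 83.3 rpm, 123 and 171 rpm, and 144 and 155 rpm. The 6 D-loop sequences listed in all 6 libraries were higher in the male library in 0, 6 and 1 cases on the successive days. As a share of the library, the D-loop made up 11.55% and 5.02% in female and male SCs at E11.5, 13.1% and 12.2% at E12.5, and 8.04% and 4.54% at E13.5, lower in the male library on 3 of 3 days (difference -3.65 ± 2.81 percentage points, SD, n = 3 days, and -2.21 without the E11.5 pair; exact sign-flip permutation p = 0.25, adjusted p = 0.7).

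The first-base families of 16S, 12S and tRNA-SerGCT begin with A, and those of tRNA-SerTGA and the D-loop with G, as does the 5' end of tRNA-SerGCT at position 11615 (227 rpm in female and 31.5 rpm in male SCs at E13.5). Reads that began with G held 23.3% and 12.7% in female and male SCs at E11.5, 19.5% and 17.9% at E12.5, and 21.7% and 9.70% at E13.5. All female libraries were above all male ones (difference -8.09 ± 5.66 percentage points, SD, n = 3 days; exact sign-flip permutation p = 0.25, adjusted p = 0.7). In rpm there was no fixed order, with 1172 and 733 rpm in female and male SCs at E11.5, 617 and 896 rpm at E12.5, and 1790 and 1273 rpm at E13.5. Reads that began with U, the 5' base known from most piRNAs of the nuclear genome, held between 1.39% and 5.77% of each SC library and had no fixed order between the sexes.

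Sequences whose last base alone differs from the mtDNA were counted separately. At the first base of tRNA-SerGCT 12 such forms were found in SCs, of which the female libraries listed 6, 4 and 6 on the successive days and the male libraries 0, 1 and 11. They made up 7.20%, 4.88% and 5.75% of the reads of this 5' end in female SCs, and 0%, 0.741% and 12.3% in male SCs. Among them the T19C and A16G forms match the nuclear genome exactly, so their assignment to this tRNA is uncertain. The T22G form reached 230.0 rpm in male SCs at E13.5, was listed at 19.8 rpm in the female library of that day and was not listed in the other 4 libraries. In the first-base 16S family, with 9 such forms, the female and male libraries listed 0 and 3 at E11.5 (0% and 2.54% of the reads there), 0 in both at E12.5, and 2 and 9 at E13.5 (2.33% and 8.16%). The male library at E13.5 also had the highest level of both families, and the part of the level in these counts was not tested.

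One sequence was listed in all libraries of 1 sex and in none of the other. It was the 31-nt form of tRNA-SerGCT with C31T, with 110, 134 and 273 reads in the female libraries of the successive days, or 19.3, 22.6 and 40.7 rpm. The form with the mtDNA base at this place was listed in all 6 libraries, at 80.5 and 48.8 rpm, 97.0 and 161 rpm, and 232 and 59.3 rpm in female and male SCs. The C31T form lay close to the floor in its libraries. It entered the tests through the female libraries alone, so neither a p nor a fold is given for it. Over the 3 days together, 81 sequences were listed in both sexes, 70.4% of the 115 listed in male and 75.7% of the 107 listed in female SCs, with 34 sequences listed in males alone and 26 in females alone. The shared ones held 95.7% of the male and 96.4% of the female reads.

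The remaining features were rare. The other tRNA genes in sense held 0.99% of SC reads, led by tRNA-Gln (mt-Tq), at 15.8, 24.8 and 56.8 rpm in female SCs on the successive days and at 51.1 and 14.6 rpm in male SCs at E12.5 and E13.5. tRNA-Gln was the only 5' end listed in 3 of 3 female libraries and not in 3 of 3 male ones. tRNA-Val, tRNA-Phe, tRNA-Asn and tRNA-Gly were listed in the female library at E13.5 alone (17.9 to 39.0 rpm). The tRNA-Asn sequence differs from the mtDNA at base 9 (A9G) and matches the nuclear genome exactly, so its assignment is uncertain. tRNA-His, tRNA-Leu and Co1, a subunit of cytochrome c oxidase, were listed in the male library of that day alone (17.2 to 23.4 rpm). ND3, a subunit of complex I, read 64.7 rpm in male SCs at E11.5 and 36.6 and 21.2 rpm in female and male SCs at E13.5. Its sequences in SCs all differ from the mtDNA at the third base (T3C) and match the nuclear genome exactly, so the assignment to ND3 is uncertain. Reads antisense to tRNA-Pro appeared at E13.5 only, at 36.6 rpm in female and 94.6 rpm in male SCs, as did those antisense to tRNA-Ala, at 17.4 and 41.0 rpm. tRNA-Glu was listed at 15.7 rpm in male SCs at E12.5 and at 38.6 rpm in female SCs at E13.5.

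Whether the sexes differed in SCs otherwise than in PGCs was tested as the interaction of sex and cell type over the 12 libraries. The PGC and SC libraries of a sex and day come from the separation of gonads into 2 fractions, so they are not independent and PGCs are no separate check of the order in SCs. By edgeR 0 of 8 features, 0 of 21 5' ends and 0 of 58 sequences passed (0% each), with 0 at an unadjusted p under 0.05 in each, and DESeq2 called 0, 0 and 2. At the first base of 16S, PGCs had 1003 and 2386 rpm (female and male) at E11.5, 1196 and 1178 rpm at E12.5, and 2648 and 2993 rpm at E13.5. The male level in PGCs was thus the higher on 2 of 3 days at this 5' end, and on 3 of 3 days for the whole 16S gene (mean log2 0.59 ± 0.83, SD, n = 3 days), the 12S gene (0.80 ± 0.95) and the total (0.55 ± 0.48, against 0.51 ± 0.27 in SCs). Part of these counts rests on near-ties: the female and male values were 1445 and 1455 rpm for 16S and 321 and 327 rpm for 12S at E12.5, and 7201 and 7222 rpm for the total at E13.5. Without the E11.5 pair the mean log2 difference in PGCs was 0.11 for 16S and 0.27 for 12S, and without the E12.5 and E13.5 pairs in turn it was 0.87 and 0.77 for 16S. At the first base of 16S the difference between the sexes in SCs exceeded that in PGCs by 0.74 on the log2 scale (SE 0.93, edgeR adjusted p = 0.866). For the whole 16S and 12S genes the excess was 0.62 (SE 0.63) and 0.89 (SE 0.85), both at an edgeR adjusted p of 0.949. The female PGC library at E13.5 stands apart in its sequences: of 27 listed in all the other 11 libraries it lists 17, and 30 of its 71 sequences are in no other library. Without it edgeR called 0 features, 0 5' ends and 0 sequences, with 0 at an unadjusted p under 0.05 in each. With the pool of gonads as a block, like the former an alternative added after the data were seen, edgeR again called 0 features, 0 5' ends and 0 sequences, with 0 at an unadjusted p under 0.05 in each. The rRNA share of PGCs was 32.1% and 57.9% in female and male libraries at E11.5, 65.2% and 35.2% at E12.5, and 59.6% and 71.6% at E13.5. Its mean difference of 2.61 ± 29.1 percentage points (SD, n = 3 days) thus covers days of opposite sign, and whether it differs from the 20.05 ± 19.8 points of SCs was not tested.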

How the data were processed

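Small RNAs of SCs and PGCs of male and female gonads had been sequenced at 3 days, 1 library each. For each library the authors deposited raw read counts of unique sequences, without normalization. Per the methods of the study, reads were trimmed with Trim Galore and checked with FastQC, identical reads were collapsed, sequences under 10 CPM were discarded, the rest were aligned with Bowtie with up to 1 mismatch, and those that matched the mtDNA and a piRNA database were kept. These steps remove rare sequences and fix what can be listed. The adapter given by the study begins with A and was trimmed at a minimum overlap of 1 base, so a last base A can be lost. First-base 16S forms of 16, 22, 24, 28, 30 and 33 nt, which end in A, were listed in the female PGC library at E13.5 alone. Those of 26, 27 and 32 nt, also ending in A, were listed in other libraries. Whether trimming shaped the lengths given above was not tested.

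All sequences were located on chrM of GRCm39, allowing 1 mismatch, and each was given the GENCODE gene and strand that hold most of its bases. Matches elsewhere were searched, again allowing 1 mismatch, on the nuclear chromosomes of that assembly. Counts were summed per feature and 5' end and expressed per 1000000 total reads of the library, the totals being those that the paper tabulates for sequences above 10 CPM, since the files hold part of a library. Missing sequences were taken as 0 reads. Counts were tested with edgeR 4.0.16 (quasi-likelihood, no trend, day and sex, Benjamini-Hochberg over all items with reads in at least 3 libraries, or 6 of 12 for the interaction) in R 4.3.3. DESeq2 1.42.0 was an alternative. Single values were compared by exact permutation of the 8 sign patterns of the 3 day pairs or the 20 ways of dividing the 6 libraries. For levels this was done on log2 rpm, with no value added. The PGC means with a day left out were taken on log2(rpm + 1). Python 3.11.15, numpy 2.4.6, pandas 2.3.3 and scipy 1.17.1 were used. The fit was also run on simulated data with known changes. These were drawn without a day effect or a floor, so that run cannot show how the fit performs on the counts used here.

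The libraries of each of the 3 day pairs share a day and no embryo. Whether their pools shared mothers is not stated. Deviations from the group means, over the 33 sequences listed in all 6 libraries, correlated at 0.04, 0.55 and -0.13 within the pairs of E11.5, E12.5 and E13.5. No 2 of the 6 libraries had identical counts (0 of 15 pairs). Members and lists were chosen with earlier results of these data known. Named were all features, the 8 5' ends and 10 sequences with the most reads, sequences listed in 1 sex alone in 3 libraries, and the leading sequence of most of these 5' ends. The 29-nt and 31-nt forms of 16S, the 16S 3' end and junction sequences, the 5' ends called by DESeq2, the 12S 17-nt and 30-nt forms and the mismatched forms were named after their values were seen. Alternatives were other library sizes, TMM, DESeq2, other filters, a cut-off of 25 rpm, exact matches, no day term, the pool as a block or 1 PGC library left out for the interaction (both added after the data were seen) and leaving out each day.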

Additional observations from a re-analysis of the deposited data

How the results depend on the processing

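With 1 library per sex and day, 3 pairs and a floor of 10 CPM, small differences could not be detected, and unlisted sequences can lie below the floor. Of 458 alternative values for 46 results, 405 kept their direction and their side of the threshold, 47 reversed and 6 newly passed the threshold. No reversed value had passed a test, and no cause was tested. The counts of calls that changed were features limited to those with reads in all 6 libraries (1 called, with fewer tested) and, by DESeq2, 5' ends (5), sequences (11) and the interaction in sequences (2).

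The 3 day pairs did not all correlate, and without the replicate block (no day term) 0 features, 0 5' ends and 0 sequences were called, with log2 differences of 1.08 for 16S and 1.31 for 12S. Without the block the sign turned for tRNA-SerGCT (0.36), its first base (0.39), its 26-nt form (0.15) and its 27-nt form (0.0986).

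The log2 difference of tRNA-SerGCT and of its first base was 0.0496 and 0.0322 with library sizes from all piRNA reads, 0.19 and 0.20 with 12 libraries fitted, and 0.0340 and 0.0292 with unlisted sequences set to the lowest listed count. The 27-nt form turned to 0.0314 with all piRNA reads and 0.18 with 12 libraries, where the 26-nt form was 0.0304. With library sizes from the deposited counts the 22-nt, 21-nt and 19-nt forms were -0.43, -0.32 and -0.39, under TMM -0.11, -9.36e-05 and -0.0744, and by DESeq2 -0.13, -0.0208 and -0.0958. The 12S 5' end at 978 was -0.0133 with deposited counts and -0.13 with TMM. With each listed sequence counted once, the difference (male minus female, percentage points) turned for first-base starts (-4.23), 5' A (-2.34), exact matches (2.41) and last-base mismatches (-1.28), and for mean length (-0.0201 nt).

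Leaving out each day in turn gave 0 calls for features, 5' ends and sequences. It moved the log2 difference from 1.03 to 1.33 for 16S, from 1.17 to 2.12 for 12S and from 0.43 to 0.67 for the total. The sign depended on the day left out for tRNA-SerGCT (-0.53 without E13.5 to 0.59 without E11.5) and its first base (-0.60 to 0.63), and for the D-loop and its 5' end (-0.58 without E12.5 to 0.20 without E11.5). It also did for the 12S 5' end at 978 (-0.12 to 1.23) and for the SerGCT forms of 22 nt (-0.43 to 0.86), 26 nt (-0.81 to 0.57), 21 nt (-0.22 to 0.87), 19 nt (-0.79 to 1.09) and 27 nt (-0.35 to 0.41). Among shares the range crossed 0 for protein-coding genes (-0.0529 to 0.561 points), first-base starts (-4.88 to 4.26), exact matches (-1.87 to 1.71) and last-base mismatches (-2.48 to 1.63). It crossed 0 for mean length in the D-loop family (-0.675 to 0.0741 nt) and in tRNA-SerTGA (-0.627 to 1.19 nt).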
